A study of Mus musculus with 2 samples.

Results

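The 10 genes described here form an imprinted growth network named after Cdkn1c: Cdkn1c, H19, Igf2, Dlk1, Meg3, Peg3, Plagl1, Grb10, Mest and Ndn. They were chosen by gene symbol, and each matched exactly 1 of the 32285 features counted in both libraries. Single-cell transcriptomes were collected from muscle stem cells, also called satellite cells, of the tibialis anterior muscle, from mice aged 8 weeks of the strain Pax7 CreERT2/+ ;Rosa26 mTmG/+. Both groups carried these alleles: a Cre that needs tamoxifen and is expressed from Pax7, and a membrane reporter that switches from tomato to green fluorescence after recombination, so green marks cells that had expressed Pax7 and their descendants. The tamoxifen schedule of these mice is not given in the sources used here. The QSC library held sorted quiescent satellite cells from uninjured muscle, and the ASC library held sorted activated satellite cells taken 1.5 days after an injection of cardiotoxin (CTX), which destroys muscle fibres. Each group had 1 library made from a pool of several mice, so group and library cannot be told apart and no difference has a replicate check. All values are counts of UMIs, the molecular identifiers that mark single captured transcripts, scaled to a library total of 1e+06 (CPM), and every interval is a 95% interval for counting error only.

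Imprinted genes are transcribed mainly from the copy inherited from 1 parent. Many of them act on fetal and postnatal growth and are known to be expressed together in several tissues, muscle stem cells among them. Cdkn1c encodes p57, an inhibitor of cyclin-dependent kinases that is known for holding cells out of the cycle and for its part in myoblast differentiation. H19 and Meg3 are long noncoding RNAs. H19 lies beside Igf2, which encodes a growth factor, and Meg3 lies beside Dlk1, which encodes a membrane protein with EGF-like repeats. Peg3 and Plagl1 encode zinc finger proteins, Grb10 an adaptor protein that binds the insulin and IGF1 receptors, Mest a protein of the hydrolase fold family, and Ndn the MAGE family protein necdin. The counts carry no information on the parental copy.

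Gene positions are those of GENCODE M21 (GRCm38). On chromosome 7 lie Peg3 (start 6703892, end 6730431), Ndn (62346569 to 62350262), H19 (142575529 to 142578143), Igf2 (142650766 to 142666816) and Cdkn1c (143458339 to 143461050). Dlk1 (109452823 to 109463336) and Meg3 (109541001 to 109571726) lie on chromosome 12, Mest on chromosome 6 (30723547 to 30748465), Plagl1 on chromosome 10 (13060504 to 13131694) and Grb10 on chromosome 11 (11930508 to 12038683). Cdkn1c, Igf2, Mest and Ndn each overlap at least 1 counted gene on the opposite strand (Gm44732 for Cdkn1c, Igf2os for Igf2, Gm44296 and Copg2 for Mest, and Gm32061 for Ndn). How the counting used strand is not given in the sources used here, so these counts are less certain than those of the other 6 genes.

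The libraries differed in ways that touch every value below. Of 766 deposited QSC barcodes, 516 had at least 500 genes and at most 10% mitochondrial UMIs (1162091 UMIs, median 2155 per barcode), and of 1650 ASC barcodes, 1468 passed (8895815 UMIs, median 3502). Fibre-high barcodes, those in which 10 muscle fibre genes gave 5% or more of the UMIs, made up 20.2% of the QSC and 65.1% of the ASC barcodes, and 2 QSC and 43 ASC barcodes lay between 4% and 6%. The remaining barcodes fell into 9 clusters, from which the network genes had been left out. Clusters with macrophage/monocyte, fibroblast or endothelial markers held 44 QSC and 77 ASC barcodes in spite of the sort. The other 368 QSC and 435 ASC barcodes are called fibre-low muscle, with a median of 2223 and 7770 UMIs. Among them, 37 ASC barcodes of cluster 4 carried neutrophil markers (summed level 8133 CPM, against 138 CPM in its 42 QSC barcodes). Pax7 stood at 160 CPM in the QSC and 18.4 CPM in the ASC library, and Myog, which encodes the differentiation factor myogenin, at 25 and 613 CPM. The libraries shared 4 barcodes, 2 of them kept.

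In the comparison of the libraries, 3 network genes were higher and 5 were lower in ASCs by at least 2-fold with an interval that excluded 1. Cdkn1c, H19 and Mest were the higher ones (3 of 10 genes, against 12.4% of the 11189 genes with at least 20 UMIs), and Meg3, Peg3, Plagl1, Grb10 and Ndn the lower ones (5 of 10, against 21.3%). Igf2 and Dlk1 were past 2-fold in neither direction. The median log2 ratio of the 10 genes was −1.06, and that of all genes tested −0.10. The median over the 5730 genes with at least 20 UMIs in each library was −0.24. Relative to that median, Cdkn1c stood at 3.36, Mest at 2.32 and H19 at 1.33, whereas Meg3 stood at −2.05, Peg3 at −2.09 and Grb10 at −0.99.

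**Figure D1:**
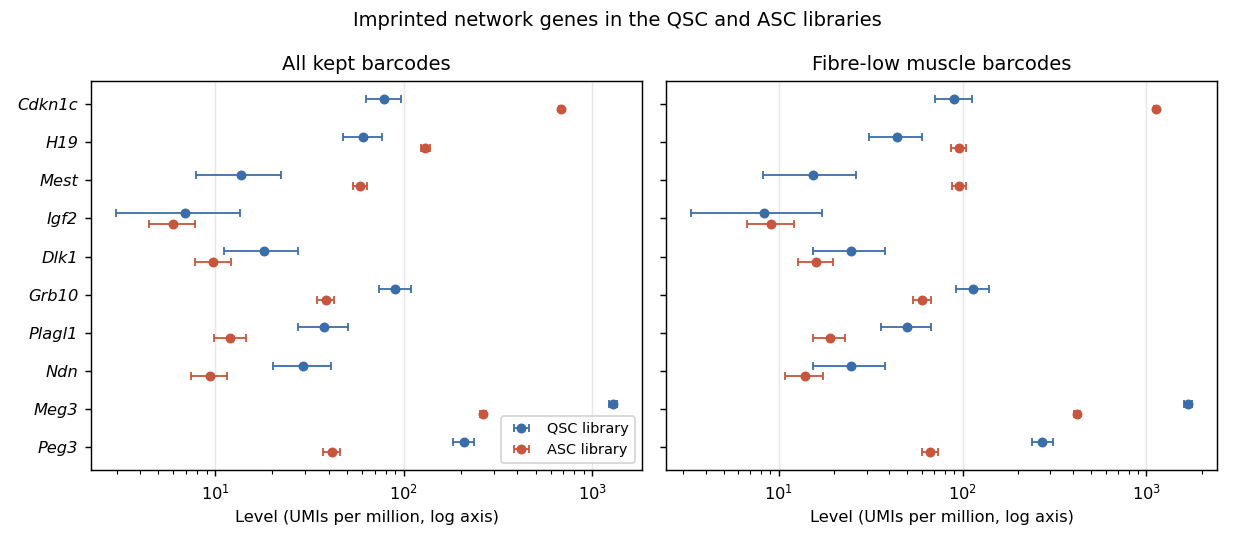
Level of each network gene (CPM, log axis) in the QSC library (blue) and the ASC library (red), over all kept barcodes and over fibre-low muscle barcodes, with exact Poisson 95% intervals that cover counting error only. The intervals of the libraries are apart for Cdkn1c, H19, Mest, Meg3, Peg3, Plagl1 and Grb10 in both panels, and overlap for Igf2.

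Cdkn1c, the gene the network is named after, rested on 91 UMIs in the QSC library, or 78.3 CPM (63.0 to 96.1). In the ASC library it had 6080 UMIs, or 683 CPM (666 to 701). The log2 ratio was 3.13 (2.83 to 3.44), an 8.73-fold higher level in ASCs. Few barcodes carried most of these UMIs in either library. In the QSC library, 33 barcodes had a Cdkn1c UMI and a single barcode held 49 of the 91. In the ASC library, 283 barcodes had one and the 5 highest held 1513 of the 6080 (24.9%).

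Most ASC Cdkn1c UMIs lay in 1 cluster. Cluster 6 held 46 ASC barcodes, and its leading genes by fold were Cdkn1c, Actc1, Mymk and Myog. It is called activated muscle cell-like here, a name rebuilt from markers and not the study's own. Cdkn1c was left out of the genes used for clustering, but its level in cluster 6 is given as a description only. These 46 barcodes held 5446 of the 6080 Cdkn1c UMIs (89.6%), at 8885 CPM. All 46 had at least 1 Cdkn1c UMI, from 0.51 to 295 per 10000 UMIs with a median of 84.4. Myog stood at 6557 CPM and Mymk, which encodes the fusion protein myomaker, at 812 CPM in the same barcodes, and no Pax7 UMI was found in them. The cycling list of 15 genes summed to 380 CPM there, against 2180 CPM in the ASC barcodes of cluster 0.

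The QSC library held 1 barcode of cluster 6, with 4172 UMIs. It was the barcode that carried 49 of the 91 QSC Cdkn1c UMIs (117 per 10000), and it also carried 28 of the 29 QSC Myog UMIs. This barcode was not among the ASC barcodes. Without cluster 6 in either library, Cdkn1c in fibre-low muscle barcodes stood at 32.1 CPM (21.2 to 46.7, 27 UMIs) in QSCs and 106 CPM (97.2 to 116, 497 UMIs) in ASCs, a log2 ratio of 1.73 (1.17 to 2.34). With cluster 6 the same ratio was 3.64 (3.32 to 3.99), from 90.0 and 1124 CPM. Over all kept barcodes without cluster 6, it was 1.08, so the direction held while the ratio was smaller. Of the 497 ASC UMIs, 170 lay in 6 barcodes of cluster 1, 126 in 4 barcodes of cluster 5 and 14 in 1 barcode of cluster 4. Most of the ASC UMIs outside cluster 6 thus lay in 11 barcodes, and the higher level there rested largely on them. Whether the direction holds without these barcodes was not tested. Leaving out clusters 4 and 5 in place of cluster 6 gave 3.71 in fibre-low muscle barcodes.

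Outside cluster 6, the ASC Cdkn1c level was spread unevenly over the clusters. It stood at 278 CPM (234 to 327) in the ASC barcodes of cluster 5, which was led by slow-fibre and haemoglobin genes, and at 197 CPM (175 to 222) in cluster 1, which stayed unnamed, was led by Bgn, Tagln and Igf1 among others, and had Pax7 at 78.8 CPM. In the ASC barcodes of cluster 0, it was 23.1 CPM on 56 UMIs. The macrophage/monocyte-like ASC barcodes, a non-muscle class, had 36.9 CPM (21.9 to 58.3), with Myog at 59.4 CPM. Whether these cells express Cdkn1c themselves was not tested. The fibre-high ASC barcodes had 37.7 CPM (31.1 to 45.1). The level in cluster 0 was therefore not above that of the macrophage/monocyte-like barcodes, whereas those of clusters 1 and 5 were. In clusters 1 and 5 a few barcodes carried much of it. Of 51 ASC fibre-low muscle barcodes with at least 10 Cdkn1c UMIs per 10000, 40 were in cluster 6, 6 in cluster 1 (170 of that cluster's 278 UMIs), 4 in cluster 5 (126 of 144) and 1 in cluster 4, and 48 of the 51 also had a Myog UMI. In the QSC library only 2 barcodes reached this level: the one of cluster 6, and 1 of cluster 0 on 2 UMIs.

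**Figure D2:**
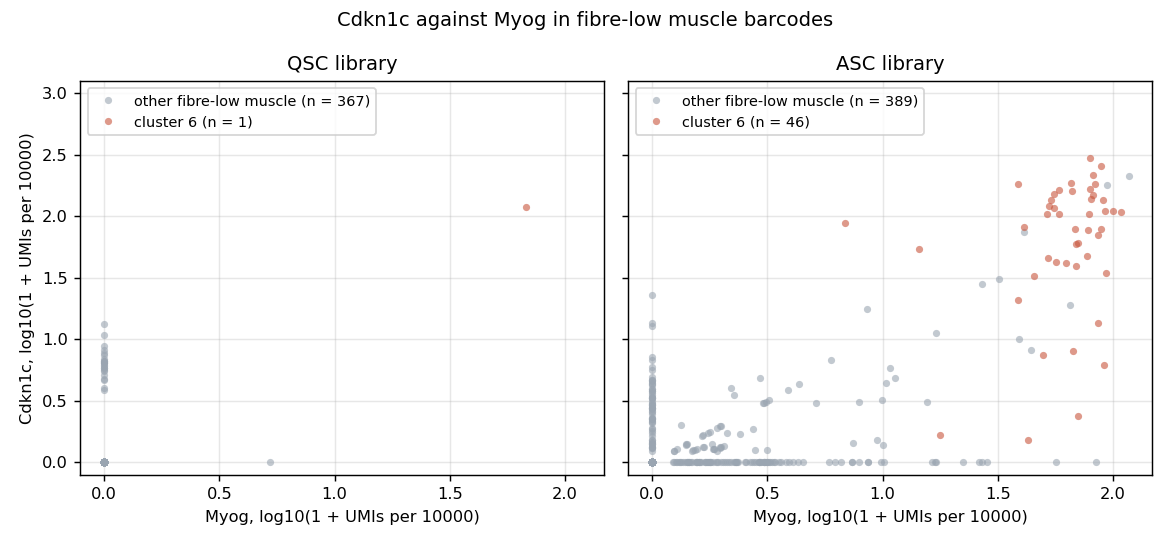
Cdkn1c against Myog in each fibre-low muscle barcode, both as log10(1 + UMIs per 10000 UMIs), in the QSC library (left) and the ASC library (right), with cluster 6 in red. Most of the 46 ASC barcodes of cluster 6 and the single one of QSCs lie at the upper right. Cdkn1c reaches 10 UMIs per 10000 in 40 of the 46 and is as low as 0.51 in the others. Most other barcodes have no UMI of 1 or both genes, and a few grey points of ASCs lie among the red ones.

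In the QSC library, Cdkn1c was at 31.2 CPM (16.1 to 54.5, 12 UMIs) in the quiescent satellite cell-like cluster 2 and at 33.7 CPM (16.8 to 60.2) in cluster 0. The fibroblast-like QSC barcodes had 157 CPM on 9 UMIs and the endothelial-like ones 315 CPM on 4 UMIs. These non-muscle barcodes therefore had a higher Cdkn1c level than the quiescent ones, on few counts. When each barcode was thinned to 1200 UMIs, 3.89% of QSC barcodes (19 of 488, 2.36 to 6.01) and 8.46% of ASC barcodes (116 of 1371, 7.04 to 10.1) had a Cdkn1c UMI, and without thinning 6.40% and 19.3%. At the thinned depth, 28 QSC and 97 ASC barcodes were too shallow and were left out. The thinned share was 93.5% in the ASC barcodes of cluster 6 (43 of 46), 8.71% in the other ASC fibre-low muscle barcodes (6.07 to 12.0), and 4.11% in the ASC macrophage/monocyte-like ones (3 of 73, 0.86 to 11.5). The last 2 intervals overlapped, so outside cluster 6 the share could not be told from the macrophage/monocyte-like share at this depth.

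Within the ASC library, Cdkn1c was also read along ranges of Myog. In 227 ASC fibre-low muscle barcodes with no Myog UMI, Cdkn1c stood at 50.9 CPM (41.0 to 62.5), and in 104 barcodes with a Myog share under the median of the positive ones it stood at 21.0 CPM (15.5 to 27.8). In the 104 barcodes from that median up, it stood at 4967 CPM, and at 643 CPM (578 to 713) in the 58 of them outside cluster 6, of which only 25 had a Cdkn1c UMI. Cdkn1c was thus high only in the upper Myog range of the 3. Median depth differed between the ranges (5064, 22466 and 9776 UMIs), and its part in these levels was not tested.

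Across library-by-class groups of at least 30 barcodes, 11 in all, the 5 genes whose log2(CPM + 10) followed Cdkn1c most closely among 6971 genes were Dbn1 (Pearson r = 0.95), Mymk (0.93), Iffo1 (0.89), Svbp (0.89) and Top1mt (0.87). Without cluster 6, over 10 groups, r fell to 0.74, 0.67, 0.61, 0.33 and 0.55, so these values rest in part on that 1 group. Myog had r = 0.86 and 0.72. Among the network genes, Igf2 (0.71) and Mest (0.67) had the highest r with cluster 6 and Peg3 (0.0065) the lowest. Without cluster 6 the order was different, with Dlk1 (0.59) and Mest (0.53) highest, Igf2 at 0.30, and Plagl1 (−0.041) and H19 (−0.26) lowest. These correlations describe 11 groups from 2 libraries that differ in depth. Free RNA that the groups of a library may share was not measured.

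H19 and Mest were the other genes with higher ASC levels, and both host microRNAs. So do Igf2 and Meg3, neither of which was higher in ASCs. H19 stood at 61.1 CPM (47.7 to 77.1) on 71 QSC UMIs and at 130 CPM (123 to 138) on 1159 ASC UMIs, with a log2 ratio of 1.09 (0.75 to 1.46). For Mest, 16 QSC UMIs gave 13.8 CPM (7.87 to 22.4) and 520 ASC UMIs gave 58.5 CPM (53.5 to 63.7), with a log2 ratio of 2.09 (1.37 to 2.90). The ASC level was thus 2.13-fold and 4.25-fold the QSC level. The mature sequences that lie within these 2 genes on the same strand, from RefSeq on GRCm38.p6, are shown because the hosts are the members, besides Cdkn1c, that were higher in ASCs. In H19 lie miR-675-5p (chr7:142577112-142577133) and miR-675-3p (chr7:142577078-142577099), on the minus strand, and in Mest lie miR-335-5p (chr6:30741314-30741336) and miR-335-3p (chr6:30741354-30741375), on the plus strand. Capitals mark the seed, bases 2 to 8, and no seed is shared. The deposited counts are of the host transcripts and do not measure the mature RNAs.
miR-675-5p: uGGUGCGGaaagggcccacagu
miR-675-3p: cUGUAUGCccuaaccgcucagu
miR-335-5p: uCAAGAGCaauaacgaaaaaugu
miR-335-3p: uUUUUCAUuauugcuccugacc

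H19 and Mest differed in how much of their UMIs lay in fibre-high barcodes. Of the H19 UMIs, 45.1% in QSCs and 55.1% in ASCs came from fibre-high barcodes, where the level was 149 CPM (102 to 211) and 206 CPM (190 to 222). Fibre-low muscle barcodes had 43.8 CPM in QSCs and 95.1 CPM in ASCs. H19 was thus the network gene with the largest share of its UMIs in fibre-high barcodes, and within them its log2 ratio was 0.46 (−0.05 to 1.02). Within fibre-low muscle barcodes its log2 ratio was 1.12 (0.64 to 1.64), and 1.06 without cluster 6. Mest had 0 UMIs in the QSC and 12 in the ASC fibre-high barcodes (3.86 CPM), so 97.3% of its ASC UMIs lay in fibre-low muscle. There it stood at 15.4 CPM in QSCs and 95.7 CPM in ASCs, a log2 ratio of 2.64 (1.85 to 3.56), and at 142 CPM in cluster 6, 136 CPM in cluster 1 and 81.7 CPM in cluster 0 of the ASC library. The ASC Mest level was therefore not confined to cluster 6, and the ratio without that cluster was 2.54.

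**Figure D3:**
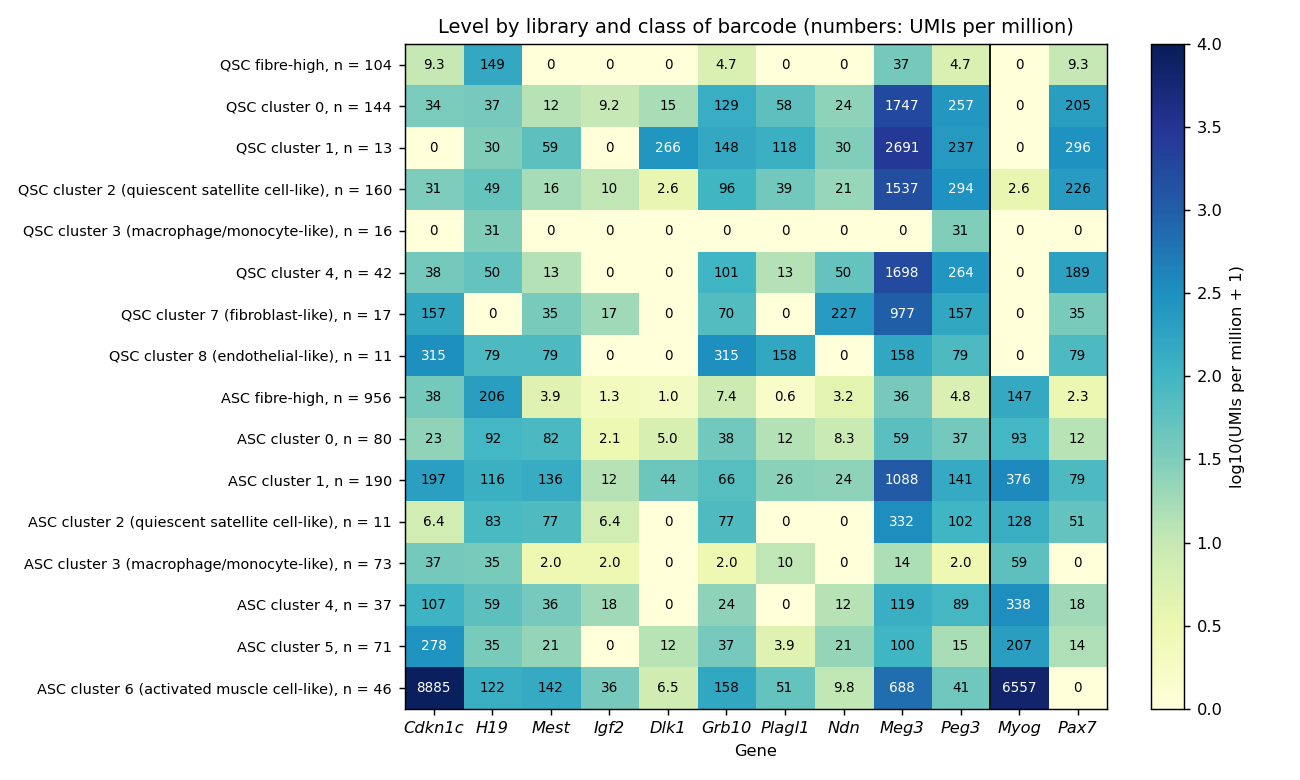
Level (CPM, printed in each cell, colour on a log10 scale) of the 10 network genes, Myog and Pax7 in each library and class of barcode with at least 10 barcodes. Cdkn1c and Myog stand out in the ASC barcodes of cluster 6 (8885 and 6557), and H19 in the fibre-high barcodes (149 and 206). Meg3 stands out in QSC clusters 0, 1, 2 and 4, ASC cluster 1 and the fibroblast-like QSC barcodes (977). Ndn stands out in the fibroblast-like QSC barcodes (227).

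Igf2 was sparse. It had 8 UMIs in the QSC library (6.88 CPM, 2.97 to 13.6) and 53 in the ASC library (5.96 CPM, 4.46 to 7.79), and its log2 ratio of −0.21 had an interval from −1.29 to 1.08. A 2-fold change in either direction was thus not detectable at this depth. Of the 53 ASC UMIs, 22 lay in the 46 barcodes of cluster 6 (35.9 CPM, 22.5 to 54.3), 17 in cluster 1 (12.1 CPM) and 5 in cluster 0 (2.06 CPM, 0.67 to 4.82). In ASC fibre-low muscle barcodes, 24 of the 34 with an Igf2 UMI also had an H19 UMI, but these had a median of 19118 UMIs against 7770 for all. In QSCs, none of the 7 barcodes with Igf2 had an H19 UMI.

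Dlk1 and Meg3, neighbours on chromosome 12, were unlike in how many barcodes carried them. Dlk1 had 21 UMIs in 7 QSC barcodes (18.1 CPM, 11.2 to 27.6), 19 of them in 5 barcodes. In ASCs it had 87 UMIs in 35 barcodes (9.78 CPM, 7.83 to 12.1), 62 of them in cluster 1 (44.0 CPM). The log2 ratio was −0.89 (−1.59 to −0.12) and did not reach 2-fold, and within fibre-low muscle barcodes it was −0.65 with an interval that included 0. All 7 QSC barcodes with Dlk1 also had Meg3, a transcript found in 80.2% of QSC fibre-low muscle barcodes. In ASCs, 24 of 32 did, where Meg3 was found in 60.9%, but these 24 had a median of 14305 UMIs against 7770 for all. The QSC level of Dlk1 thus rests on 7 barcodes, with none in fibre-high ones.

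Meg3 and Peg3 had the lowest ratios of the network. Meg3 had 1495 QSC UMIs (1286 CPM, 1222 to 1353) and 2342 ASC UMIs (263 CPM, 253 to 274), with a log2 ratio of −2.29 (−2.38 to −2.19). Peg3 had 242 QSC UMIs (208 CPM, 183 to 236) and 368 ASC UMIs (41.4 CPM, 37.2 to 45.8), with a log2 ratio of −2.33 (−2.57 to −2.09). These are 4.89-fold and 5.03-fold lower levels in ASCs. The promoter table of RefSeq (GRCm38.p6) held 15 windows for 8 of the network genes (all but Cdkn1c and H19). Shown are the 180 bases before the single listed start of Peg3 (chr7:6730420-6730599, minus strand) and before the first listed start of Meg3 (chr12:109540816-109540995, plus strand), printed 5′ to 3′ on the strand of the gene. They are shown because these genes had the 2 lowest ratios and because both stretches hold TGACGTCA, the palindromic cAMP response element, marked in capitals. The motif begins 178 bases before the start of Peg3 and 57 bases before that of Meg3. The window of the other listed Meg3 start lacks it. The bases after that other start were found in the annotated Meg3 transcripts, and those after the start shown were not.
Peg3: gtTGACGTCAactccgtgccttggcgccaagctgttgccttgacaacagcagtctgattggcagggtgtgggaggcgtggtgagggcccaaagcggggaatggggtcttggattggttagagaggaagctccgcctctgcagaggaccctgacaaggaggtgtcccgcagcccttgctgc
Meg3: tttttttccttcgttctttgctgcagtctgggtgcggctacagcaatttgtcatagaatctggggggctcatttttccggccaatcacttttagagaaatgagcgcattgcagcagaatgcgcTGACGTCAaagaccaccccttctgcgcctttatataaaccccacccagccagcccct

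TGACGTCA reads the same on both strands and was searched after the sequences had been seen. Of the 32851 windows of 250 bases before a start, 508 (1.55%) held it, and of the 15 windows of network genes these 2 did. The E-box CANNTG, the general site of Myod1 and Myog, also reads the same on both strands and was in 7 of the 15 windows, from 5 genes, against 66.2% of all windows. A match describes the letters only.

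The Meg3 and Peg3 levels were low where fibre genes were high, in both libraries. Fibre-high barcodes had 37.3 CPM of Meg3 in QSCs (8 UMIs) and 35.7 CPM in ASCs (111 UMIs), and 4.66 and 4.83 CPM of Peg3. Because fibre-high barcodes were a larger share of the ASC library, the fibre-low muscle barcodes were also compared alone. There Meg3 stood at 1691 CPM in QSCs and 420 CPM in ASCs (log2 ratio −2.01, interval −2.10 to −1.91), and Peg3 at 272 and 66.6 CPM (log2 ratio −2.03, interval −2.28 to −1.79). Both falls were nearly as large within this class as over all barcodes. In fibre-low muscle as a whole, 3 of 10 network genes were higher (Cdkn1c, H19 and Mest, against 15.2% of 10016 genes) and 3 were lower (Meg3, Peg3 and Plagl1, against 20.1%). The median log2 ratio of the 10 was −0.75, and that of all genes tested −0.06.

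Within the ASC fibre-low muscle barcodes, Meg3 was not uniform. It stood at 1088 CPM (1034 to 1144) in cluster 1, at 688 CPM (624 to 757) in cluster 6 and at 59.4 CPM (50.1 to 70.0) in cluster 0. Peg3 stood at 141 CPM (122 to 162) in cluster 1, and at 40.8 and 37.1 CPM in clusters 6 and 0. Both were thus highest in cluster 1 among these 3, the one that also held 111 of the 164 ASC Pax7 UMIs, but only Meg3 was far higher in cluster 6 than in cluster 0. In the macrophage/monocyte-like ASC barcodes, Meg3 was 14.3 CPM and Peg3 2.05 CPM on 1 UMI. Non-muscle barcodes were not all low, as the fibroblast-like QSC barcodes had 977 CPM of Meg3 (738 to 1269). Their Peg3 level was 157 CPM on 9 UMIs. At 1200 UMIs per barcode, 68.6% of QSC (251 of 366) and 38.8% of ASC fibre-low muscle barcodes (165 of 425) had a Meg3 UMI, and 26.2% and 9.88% a Peg3 UMI. The ASC clusters also differed in depth, and cluster 0 was the deepest.

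**Figure D4:**
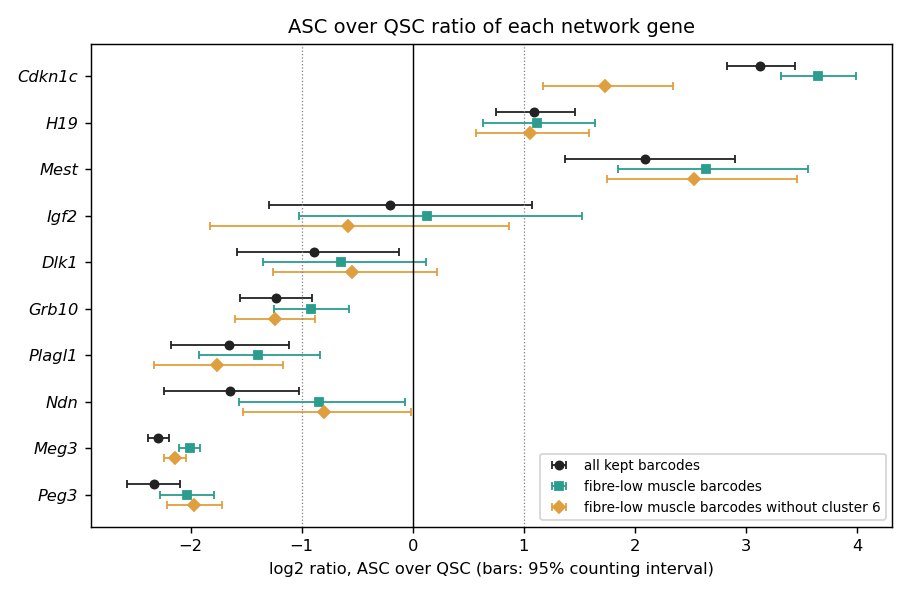
Log2 ratio of ASC over QSC for each network gene, with 95% counting intervals, over all kept barcodes (black), fibre-low muscle barcodes (green) and fibre-low muscle barcodes without cluster 6 (orange), with dotted lines at 2-fold. Cdkn1c moves from 3.64 to 1.73 when cluster 6 is left out, while Meg3 and Peg3 stay at or below −1.97 in all 3 settings.

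Plagl1, Grb10 and Ndn were lower in ASCs on fewer counts. Plagl1 had 44 QSC UMIs (37.9 CPM, 27.5 to 50.8) and 107 ASC UMIs (12.0 CPM, 9.86 to 14.5), with a log2 ratio of −1.65 (−2.17 to −1.11). Grb10 had 105 QSC UMIs (90.4 CPM, 73.9 to 109) and 342 ASC UMIs (38.4 CPM, 34.5 to 42.7), with a log2 ratio of −1.23 (−1.55 to −0.90). Ndn had 34 QSC UMIs (29.3 CPM, 20.3 to 40.9) and 83 ASC UMIs (9.33 CPM, 7.43 to 11.6), with a log2 ratio of −1.65 (−2.24 to −1.03). All 3 intervals were thus apart between the libraries. The calls of Grb10 and Ndn did not hold in fibre-low muscle barcodes, where the log2 ratios were −0.92 (−1.25 to −0.57) and −0.85 (−1.56 to −0.07), while that of Plagl1 was −1.39 (−1.93 to −0.84). For Ndn, 13 of the 34 QSC UMIs lay in 17 fibroblast-like barcodes (227 CPM, 121 to 388), a cluster with no ASC barcodes. For Grb10, ASC cluster 6 held 97 of the 342 UMIs (158 CPM, 128 to 193), in 40 of its 46 barcodes, and without that cluster the fibre-low muscle ratio was −1.24, past 2-fold again. Plagl1 was likewise higher in ASC cluster 6 (50.6 CPM, 34.4 to 71.8) than in cluster 0 (12.4 CPM, 8.35 to 17.7). The ASC level of both genes was thus highest, among ASC classes of at least 30 barcodes, in the cluster where Cdkn1c was highest.

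Without cluster 6, the fibre-low muscle barcodes had the same 3 genes higher (against 15.8% of 9785 genes) and 4 lower, Meg3, Peg3, Plagl1 and Grb10 (against 21.0%). In fibre-high barcodes, only 4 of the 10 network genes had enough UMIs (Cdkn1c, H19, Meg3 and Grb10). Cdkn1c was called higher (1 of 4, against 7.78% of 6569 genes), from 2 QSC UMIs to 117 ASC UMIs with a log2 ratio of 2.01 and an interval from 0.13 to 5.08, and none of the 4 was called lower (against 5.21%). The fibre-high barcodes thus carried little of the network besides H19. In those of QSCs, Peg3 and Grb10 had 1 UMI each and Igf2, Dlk1, Plagl1, Mest and Ndn had 0.

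The mitochondrial limit decides which of these barcodes are seen. At the 1% limit that the study's methods name, 86 QSC and 948 ASC barcodes remained, and 85 of the 86 and 879 of the 948 were fibre-high. Of the fibre-low muscle barcodes, 1 of 368 in QSCs and 57 of 435 in ASCs remained, and none of cluster 6. The network was then compared almost only in fibre-high barcodes: Cdkn1c stood on 1 QSC and 237 ASC UMIs, and was the 1 gene called. The share of all genes called at this limit was not worked out.

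Because p57 inhibits cyclin-dependent kinases, the ASC fibre-low muscle barcodes were split into 3 ranges of equal size by their share of cycling-list UMIs. Each range had 145 barcodes, and 120 in the lowest had no UMI of the list. Cdkn1c stood at 3505 CPM (3385 to 3629) in the lowest range, 1761 CPM (1687 to 1837) in the middle and 184 CPM (169 to 200) in the highest. Cluster 6 gave 25, 17 and 4 barcodes to the ranges. Without it, the levels were 225 CPM (188 to 268), 156 CPM (133 to 182) and 67.8 CPM (59.0 to 77.7). With each barcode weighted equally, the means without cluster 6 were 248, 284 and 105 CPM, so the lowest and middle ranges changed places and only the highest range stayed below the others. Meg3 fell along the same ranges, from 964 CPM through 829 to 104 CPM, and without cluster 6 from 1180 through 795 to 102 CPM. Peg3 was 81.9, 98.2 and 49.8 CPM, and Plagl1 33.8, 29.4 and 10.5 CPM, so each was lowest in the most cycling range. H19 (127, 74.4 and 94.0 CPM) and Mest (66.6, 127 and 92.1 CPM) had no such order. Grb10 fell from 86.2 through 76.1 to 46.4 CPM, but without cluster 6 it was 44.0, 64.3 and 42.2 CPM, so its steady fall was not kept. The median depth was 4722, 5761 and 22293 UMIs, so cycling share and depth moved together and their parts were not tested apart.

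**Figure D5:**
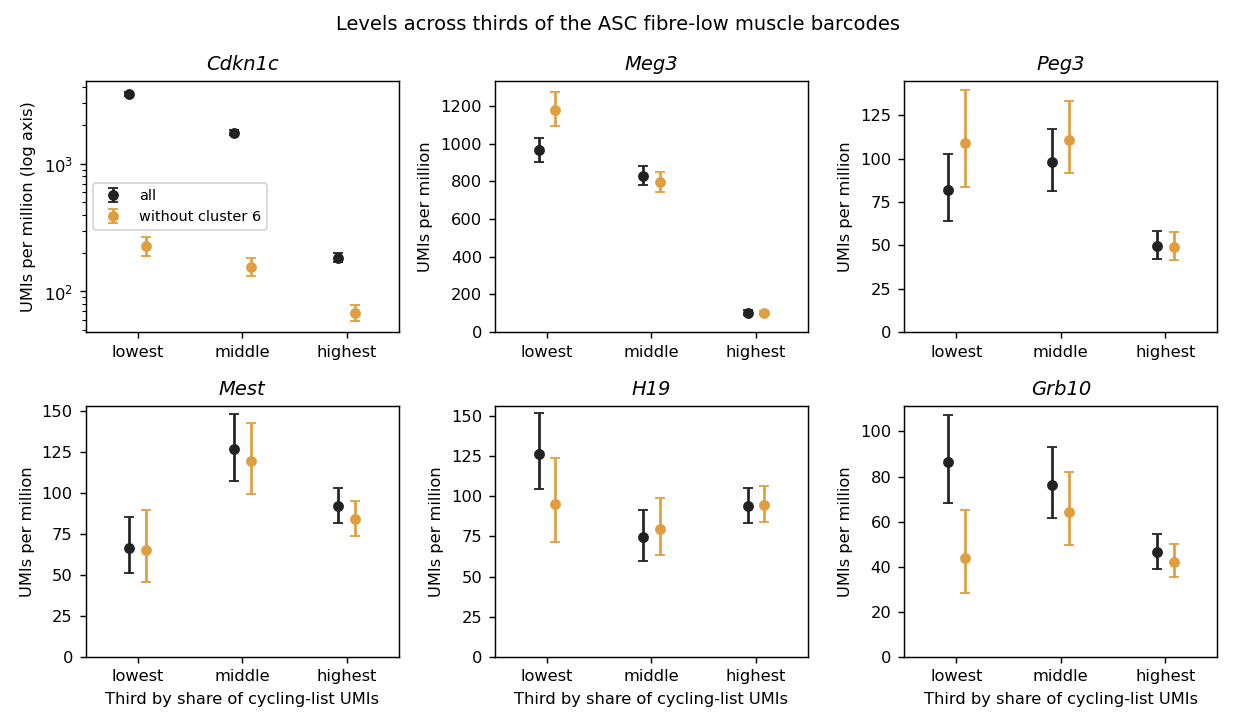
Levels of 6 network genes (CPM, log axis for Cdkn1c only) in 3 equal ranges of the 435 ASC fibre-low muscle barcodes by their share of cycling-list UMIs, with exact Poisson 95% intervals, for all barcodes (black) and without cluster 6 (orange). The summed levels of Cdkn1c and Meg3 are lowest in the highest range in both settings (67.8 and 102 without cluster 6), while H19 and Mest show no such order.

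The other imprinted genes and neighbours were mostly lower or not called. Of 15 further imprinted network genes, 11 had enough UMIs over all kept barcodes, none was higher (against 12.4% of all genes) and 4 were lower (against 21.3%), with a median log2 ratio of −0.93. These were Nap1l5 (−3.94, from 43.0 to 2.81 CPM), Sgce (−2.85, from 72.3 to 10.0 CPM), which encodes epsilon-sarcoglycan, Zdbf2 (−2.55) and Igf2r (−1.35, from 37.0 to 14.5 CPM), which encodes the receptor that clears IGF2. In fibre-low muscle barcodes these 4 were lower too, and Gatm, an enzyme of creatine synthesis, was higher (1.12, 10.7 to 23.1 CPM), a call that was lost without cluster 6. Of 21 genes in the same chromosomal clusters, 13 had enough UMIs, none was higher (against 12.4%) and 4 were lower (against 21.3%), with a median log2 ratio of −0.07. Rian (−1.98), a noncoding RNA downstream of Meg3, and Zim1 (−3.09), beside Peg3, were lower, as were Kcnq1ot1 (−1.31) and Cd81 (−1.54), which share the distal chromosome 7 region with Cdkn1c. In fibre-low muscle barcodes Kcnq1ot1 was not called (−0.97), and Cobl, a neighbour of Grb10, was higher (1.13).

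Most of the 5 IGF signalling genes were lower as well, over all kept barcodes and in fibre-low muscle barcodes. Igf1, Igf1r, Insr and Irs2 were lower over all kept barcodes (4 of 5, against 21.3% of all genes), and Irs1 also in fibre-low muscle barcodes (5 of 5, against 20.1%), with median log2 ratios of −1.95 and −1.76. Without cluster 6, 3 of the 4 genes with enough UMIs were lower (against 21.0% of all genes) and Igf1 was not called. In fibre-high barcodes none of 3 was called (against 7.78% of all genes higher and 5.21% lower), with a median log2 ratio of 0.73. With 3 genes at these shares, the lack of a call says little. Igf1r, the main receptor of IGF1 and IGF2, stood at 53.4 CPM in QSCs and 13.8 CPM in ASCs (−1.95, −2.40 to −1.48), and Irs2, an adaptor below the insulin and IGF1 receptors, at 43.0 and 7.53 CPM (−2.51, −3.06 to −1.96). Igf1 stood at 43.0 and 18.1 CPM (−1.25, −1.72 to −0.76).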

How the data were processed

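Droplet-based 3′ single-cell libraries (10x Genomics, v2 chemistry) of 1 QSC and 1 ASC sample were used. The deposited values are whole-number UMI counts per gene and barcode, which the authors made with Cell Ranger 6.0.2 per the file headers. The submitters' processing notes name Cell Ranger 7.1.0, Seurat 4.1.0, R 4.1.2 and mm10. From these counts, UMIs were summed over barcodes and scaled to CPM with exact Poisson 95% intervals. Ratios carry exact conditional binomial intervals and shares exact Clopper-Pearson intervals. PCR and droplet effects are not in them. A gene was called at 2-fold or more with an interval excluding 1, among genes with at least 20 UMIs over both libraries. A count of 0 was set to a floor of 3 counts (2.58 CPM in QSCs, 0.337 CPM in ASCs), and no fold is given where both counts are at most 3 or the bound says nothing. Cells are not replicates, so no test was run.

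Fibre-low barcodes were clustered in Seurat 5.3.0 (R 4.3.3) by the study's settings (10 components, resolution 0.6), with network, partner and fibre genes left out of the 1546 variable genes. Cluster 0 and cluster 4 mixed unlike barcodes of the 2 libraries (neutrophil markers summed to 138 CPM in the 42 QSC and 8133 CPM in the 37 ASC barcodes of cluster 4) and stayed unnamed. The 10 fibre genes were Acta1, Ckm, Myh1, Myh4, Mylpf, Myl1, Tnnt3, Tnnc2, Tnni2 and Pvalb. No doublets were removed. Python 3.11.15, numpy 2.4.6, scipy 1.17.1 and edgeR 4.0.16 (scaling factors only) were used. The call rule was tested on simulated data. All 10 network genes are named, partner genes only where called, and the members and lists were chosen with earlier results of these data known. Alternatives were other mitochondrial, gene and fibre limits, scalings, weights, clusterings and left-out barcodes.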

Additional observations from a re-analysis of the deposited data

How the results depend on the processing

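No paired analysis was possible because each group had 1 library. The call of Cdkn1c as higher held under the 10 alternatives over all kept barcodes and the 9 in fibre-low muscle barcodes, and its size did not. At the 1% limit it rested on 1 QSC UMI, and in fibre-high barcodes on 2, both under the floor of 3 counts. Its log2 ratio over all kept barcodes (3.13) was 3.65 at the 1% mitochondrial limit, 2.77 at 5%, 2.75 with at least 1000 genes, 3.45 with median-of-ratios scaling, 2.62 as a mean of barcode CPM, 4.26 without the 5 highest barcodes of each library, 2.01 in fibre-high barcodes only and 1.08 without cluster 6. In fibre-low muscle barcodes (3.64) it was 4.14 as a mean of barcode CPM, 5.22 without the 5 highest barcodes and 1.73 without cluster 6. Over all kept barcodes, the 5 highest held 60 of the 91 QSC UMIs, but 1513 of the 6080 ASC UMIs. Leaving them out thus removed the only QSC barcode of cluster 6 while most of those in ASCs stayed. The counts of 3 higher and 5 lower genes became 1 and 0 at the 1% limit and in fibre-high barcodes. In fibre-high barcodes, 7.78% of all genes tested were called higher and 5.21% lower. The share of all genes called at the 1% limit was not worked out, so the count there has no background. Peg3 (0.22 and 0.050) and Grb10 (0.76 and 0.67) turned positive in these settings on 1 QSC UMI each. Mest and others with 0 QSC UMIs there have no fold. Under TMM scaling, which shifts all ratios by 0.31, Grb10 lost its call and 4 genes were lower. The thinned Cdkn1c share (3.89% and 8.46%) was 6.40% and 19.3% unthinned and 12.1% of ASCs at 2000 UMIs. Of 161 other values of log2 ratios, 131 stayed within their counting interval, 26 moved out of it and 4 turned. The QSC depth limits Igf2, Mest, Dlk1 and Ndn, which had 8 to 34 UMIs there. Leaving out cluster 6, or clusters 4 and 5, was chosen after seeing the data.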
